A study of Mus musculus with 383 samples.

Results

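Adhesion G protein-coupled receptors were examined in single nuclei of vagal motor neurons. The members were the genes whose symbol is Adgr followed by 1 letter and a number, and they came to 27 of the 29779 genes in the deposited count table. The series, titled for selective signalling from the brain to the gut by vagus neurons, holds read counts of 383 nuclei of the dorsal vagal motor nucleus, the brainstem source of parasympathetic motor fibres to the viscera. All nuclei came from Chat-IRES-Cre male mice on a C57BL/6 background, in which Cre is made in cholinergic cells. These mice received 100 nL of AAV9-DIO-H2b-mCherry, a virus that marks Cre-positive nuclei red, in that nucleus when 10 weeks old and were killed after a further 16 days. The dissected tissue was pooled, the labels name no animal, and no uninjected or Cre-negative nuclei are among the samples. The nuclei are therefore 1 sample, no test between nuclei was made, and every interval below is an exact 95% interval that covers counting error only.

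Adhesion receptors join a long extracellular region, which binds proteins of neighbouring cells or of the matrix, to a membrane-spanning receptor domain that signals through G proteins. Most cut themselves next to the membrane, and the stretch exposed by the cut can act as a tethered agonist. In the brain the latrophilins (Adgrl1 to Adgrl3) and the brain-specific angiogenesis inhibitors (Adgrb1 to Adgrb3) are known for work at synapses, while other members are known mainly from glia, blood vessels, blood cells or epithelia.

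Of the 383 nuclei, 316 had at least 1000 genes with a read and were retained, with 1590 to 4699420 reads each and a median of 1440075. The labelled cell type was checked first. Chat, the enzyme that makes acetylcholine, had a read in 96.2% of retained nuclei, and Tbx20, which marks visceral motor neurons, in 88.9%. The median over 6 cholinergic genes was 94.8%, with Isl1 lowest at 29.7%. Over 5 visceral motor genes it was 56.3%, with Tbx2 lowest at 21.5%. Marker lists of other cells gave lower medians, of 22.8% for 8 astrocyte genes, 17.6% for 10 vascular genes and 14.2% for 7 oligodendrocyte genes. The median was 12.0% for 5 ependymal genes, 11.2% for 8 microglial genes and 5.06% for 5 genes of oligodendrocyte precursors. Single genes of these lists were far more widespread. The highest were Tek (vascular) at 79.4%, Mbp (oligodendrocytes) at 76.9%, Dnah12 (ependymal) at 69.9%, Slc1a3 (astrocytes) at 56.6% and Cx3cr1 (microglia) at 42.4%. Some nuclei were near-identical. In 17 pairs the log2(CPM + 1) values, where CPM is the reads of a gene per 1000000 reads of the nucleus, correlated over all genes with a Pearson r of 0.855 to 0.994, while the highest r of any other pair was 0.842 and the median 0.685. The pairs formed 12 groups, 11 of 2 nuclei and 1 of 4, with 26 nuclei in all, and 11 pairs had consecutive numbers. From 205 to 262 such pairs came at even steps, as 205 and 206, 213 and 214, 221 and 222, and 229 and 230. In the 11 pairs with an r of at least 0.94 a chi-square of the counts came to 1.31 to 3.49 per degree of freedom. In the near-identical pairs with a lower r it came to 9.00 to 62.7. Among 998 other pairs drawn at random the median was 69.4 and the lowest value 2.01. Whether the near-identical pairs are single nuclei read more than once was not tested. Values below are over all retained nuclei unless stated, and the main ones are also given with the deepest nucleus of each group kept, which leaves out 14 visceral nuclei and keeps 302.

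Clusters made without the adhesion receptors and their listed partners put 23 nuclei in a somatic motor-like class and 293 in a visceral motor-like class. The visceral class was split again into 10 clusters of 14 to 46 nuclei.

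Most retained nuclei carried many adhesion receptor genes at the same time. A nucleus had a read of 15 members at the median, with 2 at the lowest and 25 at the highest. After each nucleus was thinned to 500000 reads, the median over 295 nuclei was 13 members, with a range of 7 to 24. The 27 genes together took 2475 CPM in the median nucleus. Of the 27 members, 13 had a read in over 50% of nuclei, against 35.1% of all genes in the table and 46.9% of the 20909 protein-coding genes. Further, 8 members were found in over 90% of nuclei, against 17.7% of protein-coding genes. Without near-identical nuclei these counts were also 13 and 8, and no member's share moved by more than 1.21 points. The median share over the members was 49.7%, and over protein-coding genes it was 44.3%.

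The latrophilins were found in nearly every nucleus. Adgrl3, which binds FLRT proteins and teneurins, had a read in 312 of 316 nuclei (98.7%, interval 96.8 to 99.6). Its level per nucleus was 0 at the lowest, 761 CPM at the median and 3273 at the highest. Adgrl1, the founding latrophilin and a receptor of the black widow toxin alpha-latrotoxin, was found in 95.3% of nuclei (92.3 to 97.3), with 0, 59.9 and 294 CPM at the lowest, the median and the highest. Adgrl2 was found in 93.0% (89.7 to 95.6), with 0, 200.3 and 1064 CPM. Wide detection did not mean even levels, since the 10% quantile of Adgrl2 was 6.45 CPM and the 90% quantile was 529 CPM.

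Adgrl3 and Adgrl2 are set side by side in what follows, so a promoter window of each is shown, of 300 bases from 250 before to 50 after an annotated start, taken from RefSeq on GRCm38.p6 with CG pairs in capitals. The Adgrl3 window lies at chr5:81020321-81020620 on the plus strand and has 40 CG pairs. The Adgrl2 window lies at chr3:148954586-148954885 on the minus strand and has 4 CG pairs, and its start site is 35920 bases inside the gene model used here, so it is an internal start.
Adgrl3: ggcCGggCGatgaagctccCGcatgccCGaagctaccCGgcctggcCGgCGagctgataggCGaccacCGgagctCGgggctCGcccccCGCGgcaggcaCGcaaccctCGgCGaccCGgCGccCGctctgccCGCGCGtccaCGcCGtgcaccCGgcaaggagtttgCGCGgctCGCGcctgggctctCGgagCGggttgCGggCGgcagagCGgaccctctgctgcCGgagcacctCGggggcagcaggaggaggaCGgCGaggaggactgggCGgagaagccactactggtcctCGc
Adgrl2: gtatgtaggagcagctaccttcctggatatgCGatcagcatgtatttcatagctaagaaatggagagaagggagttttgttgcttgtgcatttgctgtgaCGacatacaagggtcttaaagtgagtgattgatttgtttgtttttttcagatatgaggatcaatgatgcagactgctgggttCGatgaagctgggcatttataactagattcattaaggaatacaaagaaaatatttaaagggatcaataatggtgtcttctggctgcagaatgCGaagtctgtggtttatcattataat
Of the 27 members, 20 matched a window in the same tables, with 24 windows in all. In the 7 of them that were found in over 90% of nuclei, the first window held 4 to 45 CG pairs with a median of 17, and in the other 13 it held 0 to 38 with a median of 7. Over 32851 windows of all genes the median was also 7 CG pairs. No binding or methylation was measured here, so these counts describe the letters alone.

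The brain-specific angiogenesis inhibitors were as widespread. Adgrb3, a receptor for C1q-like proteins, was found in 314 of 316 nuclei (99.4%, 97.7 to 99.9), with 0 CPM at the lowest, 828 at the median and 4486 at the highest. Adgrb1, which is known for phagocytosis of apoptotic cells and for synapse assembly, was found in 91.1% (87.5 to 94.0), with 0, 17.5 and 203 CPM. Adgrb2 was found in the same share, 91.1%, with 0, 38.9 and 234 CPM. All of Adgrl1, Adgrl2 and Adgrl3 were found together in 283 of 316 nuclei (89.6%), all of Adgrb1, Adgrb2 and Adgrb3 in 270 (85.4%), and the 6 genes together in 251 (79.4%, 74.5 to 83.8).

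The remaining members over 90% were Adgrv1 and Adgra1. Adgrv1 encodes a giant receptor needed at the stereocilia of hair cells, and it was found in 93.7% of nuclei (90.4 to 96.1) with 0, 39.7 and 423 CPM. Adgra1, an orphan receptor of the brain, was found in 91.5% of nuclei (87.8 to 94.3), with 0, 68.7 and 397 CPM.

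**Figure D1:**
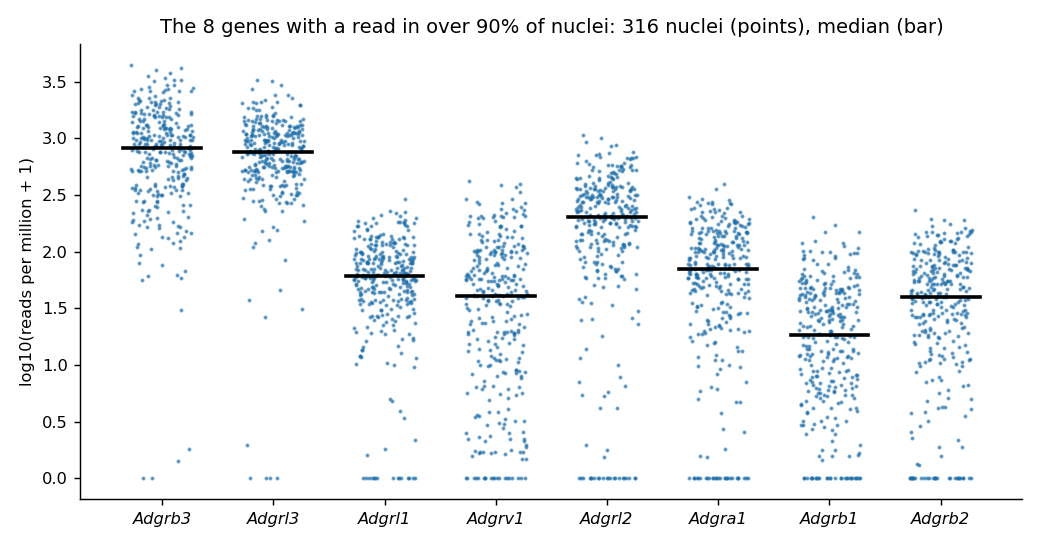
Levels of the 8 members with a read in over 90% of nuclei. Each point is 1 of 316 nuclei, the y axis is log10 of CPM (reads per 1000000) plus 1, and the bar is the median. Adgrb3 and Adgrl3 have medians of 828 and 761 CPM, and Adgrl2 has a group of nuclei at 0 beside a median of 200.3.

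Reads of the family were concentrated on few genes. Adgrb3 took 39.8% of all reads on the 27 members, Adgrl3 took 34.3% and Adgrl2 took 9.36%. Per kilobase of exon, the summed level was 58.3 RPM (reads per 1000000 reads summed over all retained nuclei) for Adgrb3, 52.4 for Adgrl3, 17.9 for Adgrl2 and 16.1 for Adgra1. The next by this measure was Adgre1 at 8.41, followed by Adgrl1 at 7.84 and Adgrb2 at 7.41. Both leading genes are very long, with gene spans of 762 kb for Adgrb3 and 805 kb for Adgrl3. Per kilobase of the whole gene span the order changed, with Adgra1 at 1.98 RPM, Adgrl1 at 1.61, Adgrl2 at 1.45, Adgrb3 at 1.42, Adgrb2 at 1.27 and Adgrl3 at 1.16. Whether intronic reads were counted is not given in the sources used here, and nuclear RNA is rich in them, so neither order is preferred. Across the 27 members the share of nuclei moved with the gene span (Spearman rank correlation 0.62, across genes, which are not independent replicates), as it did across 20909 protein-coding genes (0.63).

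In GRCm38 coordinates of GENCODE M21, Adgrb3 (ENSMUSG00000033569.17) spans chr1:25067476-25829707 on the minus strand with 33 exon blocks, and Adgrl3 (ENSMUSG00000037605.16) spans chr5:81020138-81825133 on the plus strand with 35. Adgrl2 (ENSMUSG00000028184.12) spans chr3:148815583-148990555 on the minus strand with 24, and Adgre1 (ENSMUSG00000004730.15) spans chr17:57358691-57483527 on the plus strand with 22. All 27 members are annotated there as protein-coding.

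The nucleus numbers were taken in consecutive blocks of 96, which the labels do not tie to plates, and 74 to 82 nuclei of each block were retained. The share of Adgrb3 was 98.6% to 100% by block, that of Adgrl3 97.5% to 100%, that of Adgrl2 92.5% to 93.8% and that of Adgrv1 91.9% to 95.0%. Rarer members varied more, with 74.4% to 86.2% for Adgre1, 58.8% to 74.3% for Adgre4, 45.1% to 67.6% for Adgra3 and 8.75% to 25.0% for Adgrg3. The summed level of Adgrb3 was 911 to 1232 RPM by block, that of Adgrl3 842 to 990 RPM and that of Adgrl2 231 to 286 RPM.

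Within each of the synaptic trios 1 gene dominated in most nuclei. Adgrl3 had more reads than Adgrl1 and Adgrl2 in 275 of 314 nuclei with a latrophilin read (87.6%, 83.4 to 91.0). Adgrl2 led in 38 nuclei and Adgrl1 in 1. Adgrb3 led its trio in 305 of 314 nuclei (97.1%, 94.6 to 98.7), against 7 for Adgrb2 and 2 for Adgrb1. Per kilobase of exon, Adgrl3 still led in 265 nuclei and Adgrb3 in 288. Across 295 nuclei at equal depth, rank correlations of read counts over the 28 pairs of these 8 genes ran from -0.19 for Adgrl3 with Adgrl2 to 0.24 for Adgrl1 with Adgrb2, which is weak in sparse counts.

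**Figure D2:**
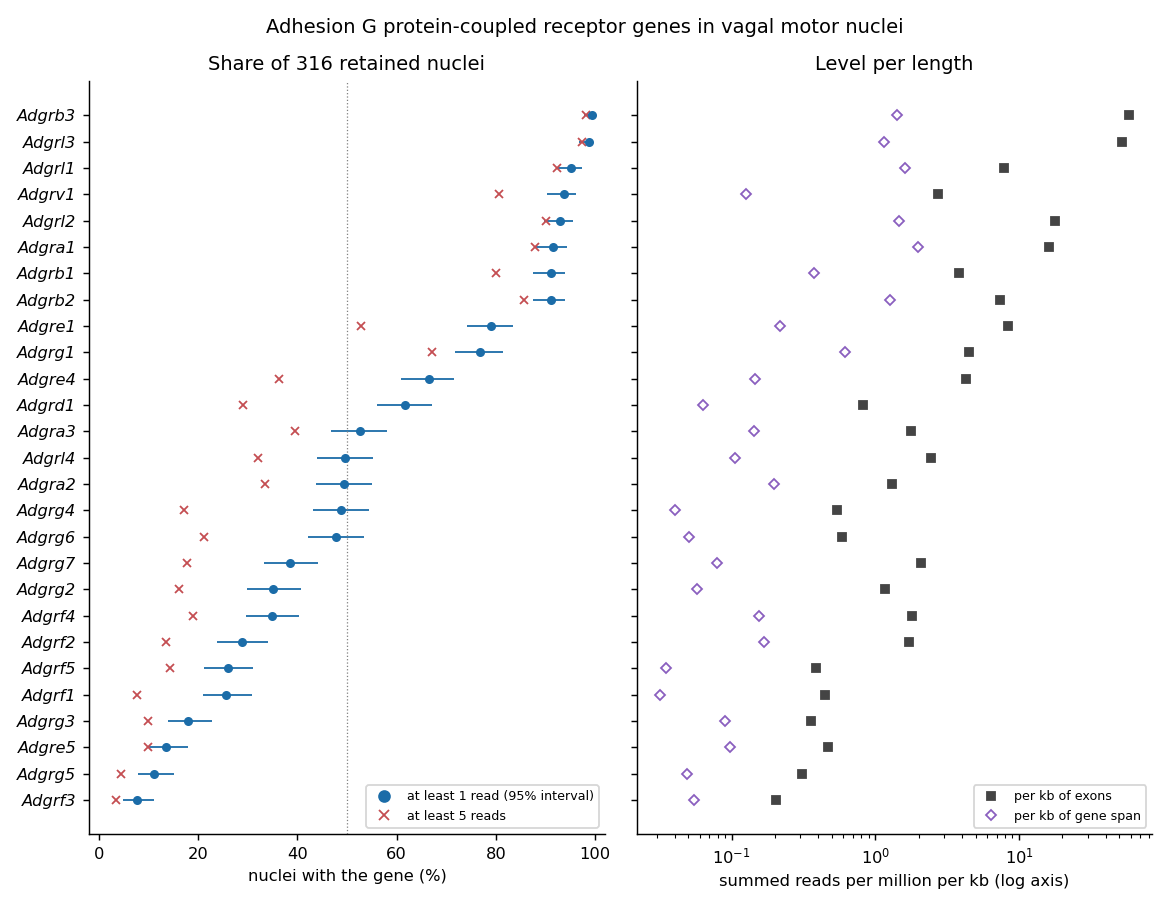
All 27 members in order of share. On the left, the x axis is the percentage of 316 nuclei with at least 1 read (points with 95% intervals) or with at least 5 reads (crosses). On the right, the x axis is the summed RPM per kilobase of exon (squares) or of gene span (diamonds), on a log axis. Adgrb3 and Adgrl3 lead by exon length at 58.3 and 52.4, and Adgra1 leads by gene span at 1.98.

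Several members known mainly from blood cells and glia were also widely found. Adgre1, which encodes the macrophage antigen F4/80, had a read in 250 of 316 nuclei (79.1%, 74.2 to 83.5), with 0 CPM at the lowest, 6.14 at the median and 445 at the highest. At least 5 reads were found in 52.8% of nuclei. The share of Adgre1 exceeded those of all 8 microglial markers in the table, which ran from 2.85% for Tmem119 to 42.4% for Cx3cr1. It was found in 183 of 228 nuclei with a read of any microglial marker (80.3%, 74.5 to 85.2) and in 67 of 88 nuclei with none (76.1%, 65.9 to 84.6). Adgre4, also known from myeloid cells, was found in 66.5% of nuclei (61.0 to 71.6), with 0, 0.96 and 574 CPM. It was found in 74.1% of the nuclei with a microglial marker (67.9 to 79.7) and in 46.6% of those with none (35.9 to 57.5), at median depths of 1391348 and 1539627 reads. The part of microglial RNA in this difference was not tested.

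Adgrg1, known from cortical development, oligodendrocyte precursors and microglia, was found in 76.9% of nuclei (71.8 to 81.4), with 0 CPM at the lowest and 16.4 at the median. Its highest level among nuclei of at least 500000 reads was 156 CPM. Its share was 78.9% with a microglial marker and 71.6% without one, and these intervals overlapped. Adgrd1, which binds Ptk7 and Plxdc2, was found in 61.7% (56.1 to 67.1), with 0, 0.71 and 110 CPM, and 30.8% of the nuclei that had it held a single read. Ptk7 had a read in 27.8% of nuclei and Plxdc2 in 90.8%. Adgra3, an orphan receptor, was found in 52.5% (46.9 to 58.1), with 0, 0.62 and 144 CPM.

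The other 14 members had shares from 7.59% to 49.7%. Adgrl4, known from endothelial cells, was found in 49.7% of nuclei, Adgra2, a partner of Reck in WNT7 signalling of brain vessels, in 49.4%, and Adgrf5, known from lung epithelium and endothelium, in 25.9%. Among 297 nuclei with a read of any vascular marker these shares were 51.5%, 50.8% and 27.3%. Among the 19 nuclei with no vascular marker they were 21.1% (6.05 to 45.6), 26.3% (9.15 to 51.2) and 5.26% (0.133 to 26.0). The 19 nuclei were shallower, with a median of 1046111 reads against 1442145. Summed levels did not follow these shares, with 15.4 RPM of Adgrl4 in the nuclei without a vascular marker and 11.1 in those with one.

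Adgrg4 was found in 48.7% of nuclei, Adgrg6, which drives Schwann cell myelination, in 47.8%, Adgrg7 in 38.6%, Adgrg2, known from the epididymis, in 35.1%, Adgrf4 in 34.8%, Adgrf2 in 28.8% and Adgrf1, the receptor of synaptamide, in 25.6%. Adgrg3 was found in 18.0%, Adgre5, the CD55 receptor CD97, in 13.6%, Adgrg5 in 11.1% and Adgrf3 in 7.59%. These last 4 shares lie below the 22.8% median of the astrocyte markers and are not read as expression here. Shares above that median are not thereby shown to be expression, since Tek, a vascular marker, reached 79.4%. Reads of the rarest members also came from few nuclei. The 10 nuclei with most reads gave 91.8% of the Adgrf3 reads and 88.6% of the Adgrg5 reads. Of the nuclei with Adgrf1, 55.6% had a single read.

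Known ligands and partners of the family were listed beside it. Of the flamingo cadherins, which belong to the family under other symbols and act in planar cell polarity and axon tracts, Celsr3 was found in 97.2% of nuclei, Celsr2 in 89.9% and Celsr1 in 44.0%. The teneurins, which bind latrophilins, were all near the ceiling, with 99.1% for Tenm1, 99.7% for Tenm2 and 98.7% for both Tenm3 and Tenm4. The FLRT ligands were less widespread, with 64.9% for Flrt3, 53.8% for Flrt1 and 39.6% for Flrt2. Among ligands of the Adgrb receptors, the C1q-like genes were rare, with 9.18% for C1ql3, 8.54% for C1ql4, 1.90% for C1ql2 and 0.63% for C1ql1. The Nogo receptor relatives ran from 4.43% for Rtn4rl2 to 54.7% for Rtn4rl1. Among ligands of other adhesion receptors, Col3a1, a ligand of Adgrg1, was found in 14.6% of nuclei and Lama2, a ligand of Adgrg6, in 94.0%. All 16 listed intracellular partners passed 50%, from 68.7% for Baiap3 to 100% for Magi2.

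The somatic motor-like nuclei were then compared with the visceral motor-like nuclei. Shares were compared at 500000 reads per nucleus, in 23 somatic and 272 visceral nuclei, and the limit was a difference of at least 40 percentage points with intervals that do not overlap. None of the 27 members passed it in either direction, while 0.383% of 25322 genes passed as higher and 0.541% as lower in somatic nuclei (0.924% in either direction). The median difference over the members was 1.71 points, and over all genes compared it was -1.41 points. The 8 members over 90% were found in 95.7% to 100% of somatic nuclei and in 87.5% to 100% of visceral nuclei.

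Adgre1 was the only member whose intervals lay apart. It had a read in 9 of 23 somatic nuclei (39.1%, 19.7 to 61.5) and in 192 of 272 visceral nuclei (70.6%, 64.8 to 75.9), a difference of -31.5 points. Before thinning the shares of Adgre1 lay closer, at 65.2% of somatic and 80.2% of visceral nuclei. Its summed level was 3.60 RPM (3.02 to 4.26) in somatic nuclei and 29.3 (28.8 to 29.8) in visceral nuclei. At a limit of 30 points it was the 1 member called lower, against 1.38% of all genes, and none was called higher, against 0.987%. Without near-identical nuclei the difference was -31.6 points. The mean thinned share of the 8 microglial markers was 12.0% in somatic and 14.2% in visceral nuclei, which is the same direction, and their part in the difference was not tested. Their summed level per nucleus was 0 to 129 CPM (median 5.51) in somatic nuclei, where 7 of 8 markers had a read and Tmem119 had none, and 0 to 782 (median 5.95) in visceral nuclei, where all 8 had one.

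Levels differed more than shares did for a few members. Adgrb3 had 1495 CPM at the lowest, 2261 at the median and 4230 at the highest in somatic nuclei, against 0, 759 and 4486 in visceral nuclei. The somatic median lay above the upper quartile of visceral nuclei (1208), although the full ranges overlapped. Its summed level was 2448 RPM in somatic and 963 in visceral nuclei, a ratio of 2.54. Adgrb1 had a median of 47.1 CPM in somatic nuclei (0 to 203) and of 16.2 in visceral nuclei (0 to 171), with a ratio of summed levels of 2.53. Adgra1 had a median of 162 CPM in somatic nuclei (0 to 283) and of 66.6 in visceral nuclei (0 to 397), with a ratio of 1.87. Adgrb2 went the other way, with a median of 27.8 CPM in somatic and 41.1 in visceral nuclei and a ratio of 0.79.

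Adgrl1, Adgrl2 and Adgrl3 had ratios of summed levels, somatic over visceral, of 1.30, 0.68 and 1.10, so their levels lay closer than those of Adgrb3. By the ratio alone, 5 of the 21 members with a summed level of at least 5 RPM in 1 of the classes were at least 2 times higher in somatic nuclei, against 9.62% of genes. They were Adgrb1, Adgrb3, Adgrf2, Adgrf4 and Adgrg2, of which the last 3 had a median of at most 1.08 CPM in each class and so rest on few nuclei. In the other direction 3 of the 21, Adgrd1, Adgre1 and Adgrg4, had at most 0.5 of the visceral level, against 14.4% of genes. Adgrd1 had medians of 0 CPM in somatic and 0.75 in visceral nuclei. For Adgrg4 the somatic median was the higher, with 0.55 against 0 CPM, as was its share before thinning, with 60.9% against 47.8%. The 10 retained nuclei with most Adgrg4 reads held 52.7% of them.

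**Figure D3:**
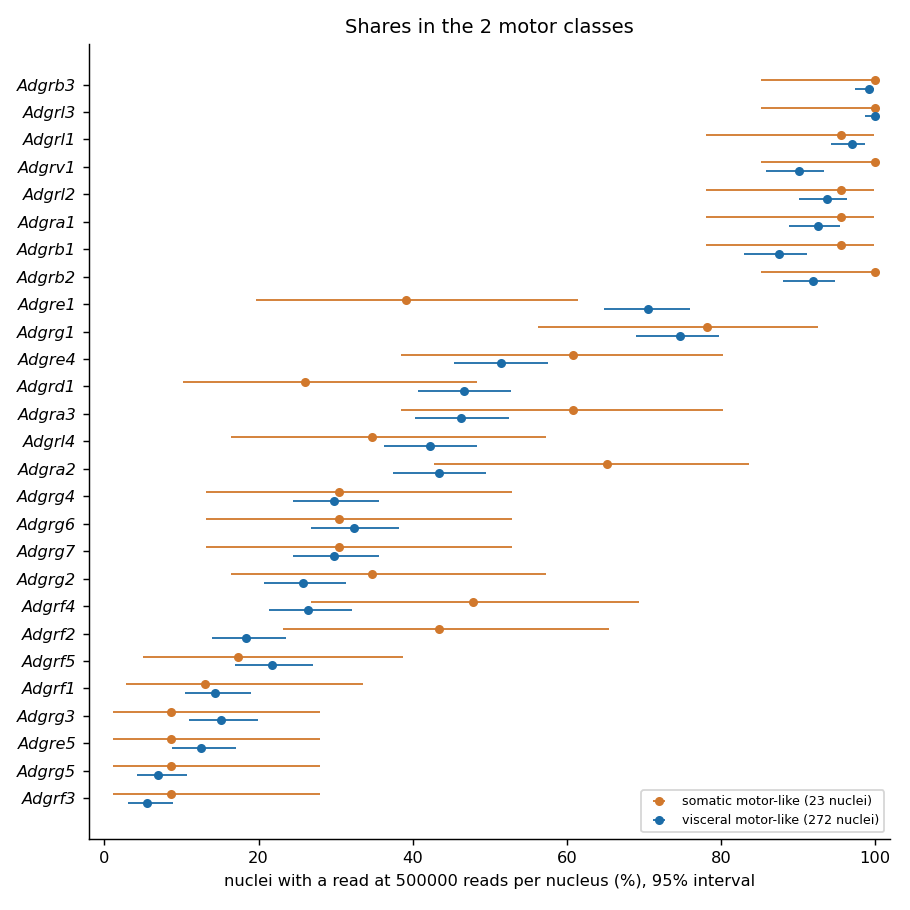
Share of nuclei with a read of each member at 500000 reads per nucleus (x axis, %), in 23 somatic motor-like nuclei (orange) and 272 visceral motor-like nuclei (blue), with exact 95% intervals as lines. The intervals of Adgre1, at 39.1% and 70.6%, do not touch, and those of the other 26 members do.

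Among the listed partners, 2 genes passed the limit between the classes. Flrt2, a latrophilin ligand, was found in 17 of 23 somatic nuclei (73.9%, 51.6 to 89.8) and in 28.7% of visceral nuclei (23.4 to 34.5), and it was the 1 of 7 latrophilin ligands called. Baiap3, a protein of dense-core vesicle traffic first found as an Adgrb1 partner, was found in 4 of 23 somatic nuclei (17.4%, 4.95 to 38.8) and in 74.6% of visceral nuclei (69.0 to 79.7), as the 1 of 16 intracellular partners called. C1ql3, an Adgrb3 ligand, was found in 34.8% of somatic and 7.35% of visceral nuclei, with intervals that lay apart but a difference under the limit.

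Within the visceral motor-like nuclei, adhesion receptors differed among clusters. The highest and the lowest of the 10 clusters were compared for each gene under the same limit, which 10 of 27 members passed, against 19.1% of 25063 genes. A gap between the extremes of 10 small clusters arises more easily than one between 2 classes, so the count is read only against that share. The 10 were Adgrd1, Adgre4, Adgrf5, Adgrg1, Adgrg2, Adgrg4, Adgrg6, Adgrg7, Adgrl2 and Adgrl4. Among them Adgrl2 was the only member found in over 90% of nuclei. Cluster 3 was highest for 5 of the 10, and with it left out 7 members passed, against 12.6% of 23777 genes (Adgrg2, Adgrg4 and Adgrg6 no longer did). Without near-identical nuclei the 10 passed too, against 17.6% of 24893 genes.

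Cluster 3 stood apart in general. Its 35 thinned nuclei had a median of 11825 genes with a read, against 9426 to 10787 in the other clusters. Markers of other cells were also more frequent there, with mean thinned shares of 42.9% for astrocyte, 43.4% for vascular and 29.3% for microglial genes, against at most 33.3%, 30.9% and 20.8% elsewhere. In cluster 3, 22 of 27 members had a higher share than in the other visceral nuclei, as did 72.2% of all genes compared. Adgre4 had a read in 28 of 35 nuclei of cluster 3 (80.0%, 63.1 to 91.6), against 47.3% of the other visceral nuclei (40.8 to 53.8). Adgrg4 had a read in 68.6% against 24.1%, Adgrg2 in 60.0% against 20.7% and Adgrg6 in 60.0% against 28.3%. The part of other cells' RNA and of the higher gene number in these values was not tested.

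Of the 3 members known from blood vessels, Adgrf5 and Adgrl4 both had their highest share in cluster 8 and passed the limit, while Adgra2 did not pass it. Adgrf5 was found in 10 of 15 cluster 8 nuclei (66.7%, 38.4 to 88.2), 42.9% of cluster 3 and 0 of 14 cluster 10 nuclei (0 to 23.2). Adgrl4 was found in 10 of 15 cluster 8 nuclei (66.7%), 65.7% of cluster 3 and 1 of 19 cluster 7 nuclei (5.26%, 0.133 to 26.0). By summed level both were highest in cluster 3, with 12.5 RPM of Adgrf5 and 26.5 of Adgrl4 there and 7.66 and 13.5 in cluster 8. Adgra2 had its highest share in cluster 10 (64.3%), with 53.3% in cluster 8 and 54.3% in cluster 3. The mean thinned share of the 10 vascular markers was 43.4% in cluster 3, 30.7% in cluster 8, with Cldn5 and Kcnj8 at 0, 18.6% in cluster 10 and 20.0% in cluster 7. Summed over markers they reached 1199 CPM at most in cluster 3 (median 133), 162 in cluster 8 (median 57.1), 127 in cluster 10 (median 15.4) and 139 in cluster 7 (median 14.4). Their part in the Adgrf5 and Adgrl4 shares was not tested. Adgrg7, best known from the intestine, had a read in 60.0% of cluster 8 and 58.8% of cluster 9, but in 5.26% of cluster 7.

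Adgrg1 was found in 35 of 36 cluster 2 nuclei (97.2%, 85.5 to 99.9), against 11 of 22 cluster 6 nuclei (50.0%, 28.2 to 71.8), and its median level was 27.0 CPM in cluster 2 and 1.39 in cluster 6. It no longer passed the limit at resolution 0.5, with 20 neighbours or without thinning (92.7% in cluster 2 and 65.2% in cluster 6). The mean thinned share of microglial markers was 12.5% in cluster 2 and 15.3% in cluster 6. Adgrd1 was found in 80.0% of cluster 3, against 1 of 14 cluster 10 nuclei (7.14%, 0.181 to 33.9). It no longer passed at resolution 0.5 or without thinning (82.5% in cluster 3 and 42.9% in cluster 10). Adgre4, Adgrl2 and Adgrl4 passed under all 11 alternatives tried, Adgrl4 with 28.6% in cluster 7 before thinning. With detection set at 5 or more reads, 6 of the 10 members still passed. Adgrf5, Adgrg2, Adgrg4 and Adgrg7 then did not, and Adgra2, Adgra3 and Adgrv1 did. Adgrf5 did not pass without thinning either.

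**Figure D4:**
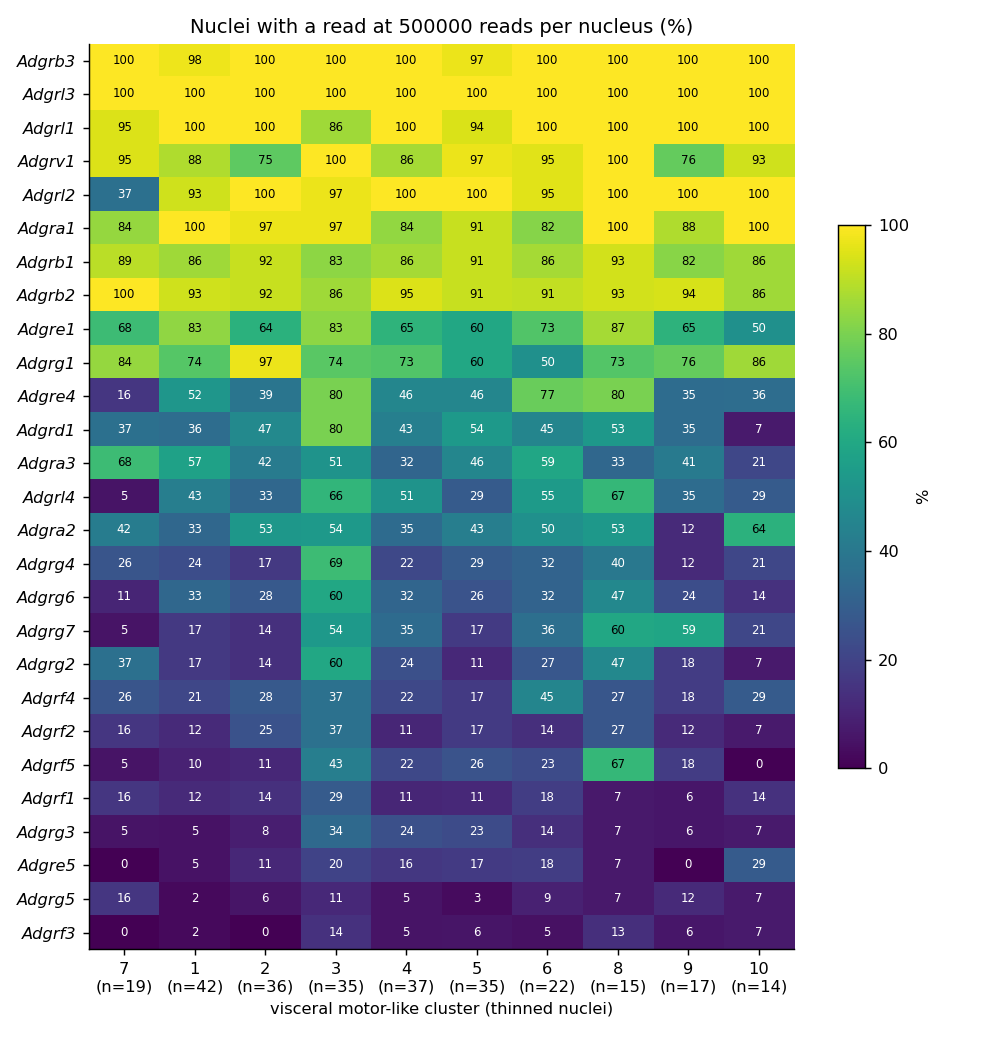
Percentage of nuclei with a read of each member (rows) at 500000 reads per nucleus, in the 10 visceral motor-like clusters (columns, with the number of thinned nuclei). Cluster 7, with the highest share of Cck, stands first. Adgrl2 is at 37% there and at 93% to 100% in the other 9 clusters, while Adgrb3 and Adgrl3 are at 97% or more in every cluster.

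The widest gap of a broadly found member was that of Adgrl2 in cluster 7. This cluster of 21 nuclei had the highest share of Cck, the gene of the gut and brain peptide cholecystokinin, with 13 of 19 thinned nuclei (68.4%), and all 19 had Cckar, a receptor for that peptide. Cckar was not particular to it, since 88.2% of cluster 9 also had a read. The comparison of cluster 7 with the other visceral nuclei was chosen after its values were seen.

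Adgrl2 had no read in 14 of the 21 nuclei, and the other 7 had 1, 6, 8, 9, 23, 28 and 65 reads. Its level was 0 at the lowest, 0 at the median and 63.2 CPM at the highest in cluster 7, against 0, 218 and 1064 in the other visceral nuclei. Outside the cluster 265 of 272 visceral nuclei had a read and so lay above its median, and the cluster medians elsewhere ran from 147 to 312 CPM. At 500000 reads, Adgrl2 was found in 7 of the 19 cluster 7 nuclei (36.8%, 16.3 to 61.6), against 248 of 253 other visceral nuclei (98.0%, 95.5 to 99.4), a difference of -61.2 points. It was the 1 member called lower there, against 0.511% of 25063 genes, and none was called higher, against 0.251%. Its summed level was 4.23 RPM (3.56 to 4.99) in cluster 7 and 282 (280.3 to 284) in the other visceral nuclei, a ratio of 0.015.

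The median depth was 1540368 reads in cluster 7 and 1418329 in the other visceral nuclei. Of the 22 retained nuclei without an Adgrl2 read, 14 (63.6%) were in cluster 7, 7 were other visceral nuclei with a median depth of 202379 reads, and 1 was somatic. The 21 nuclei came from all 4 blocks of 96 nucleus numbers, with 5, 5, 8 and 3 nuclei. The part of depth in the nuclei without a read was not tested. Of the 7 nuclei with Adgrl2, 2 formed a pair that was near-identical by its r of 0.886. Its chi-square was 62.7 per degree of freedom, near the median of 69.4 in pairs drawn at random. Its numbers, 213 and 214, lie in the evenly spaced run of consecutive pairs, and its depths were 4596647 and 1870569 reads. Whether this pair is 1 nucleus read more than once was not tested. With 1 of that pair and of each other group kept, Adgrl2 was found in 6 of 18 cluster 7 nuclei (33.3%, 13.3 to 59.0), against 237 of 242 other visceral nuclei (97.9%), a difference of -64.6 points.

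The other latrophilins did not share the low values. Adgrl3 was found in all 19 thinned nuclei of cluster 7, with a median of 1286 CPM there (30.2 to 2402) and of 726 in the other visceral nuclei (0 to 3273). Its summed level, 1458 RPM, was higher in cluster 7 than in each of the other 9 clusters (597 to 1189). Adgrl1 was found in 18 of 19 nuclei, with medians of 58.9 CPM in cluster 7 and 59.4 in the others. Adgrb3, Adgrb1 and Adgrb2 were found in 100%, 89.5% and 100% of cluster 7. Among rarer members, Adgre4 was found in 15.8% (3.38 to 39.6) inside cluster 7 but in 54.2% (47.8 to 60.4) of visceral nuclei outside it, and Adgrl4 in 5.26% and 45.1%, both just under the limit. Cluster 7 had the fewest genes with a read of the 10 clusters, with a median of 9426 in its thinned nuclei.

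**Figure D5:**
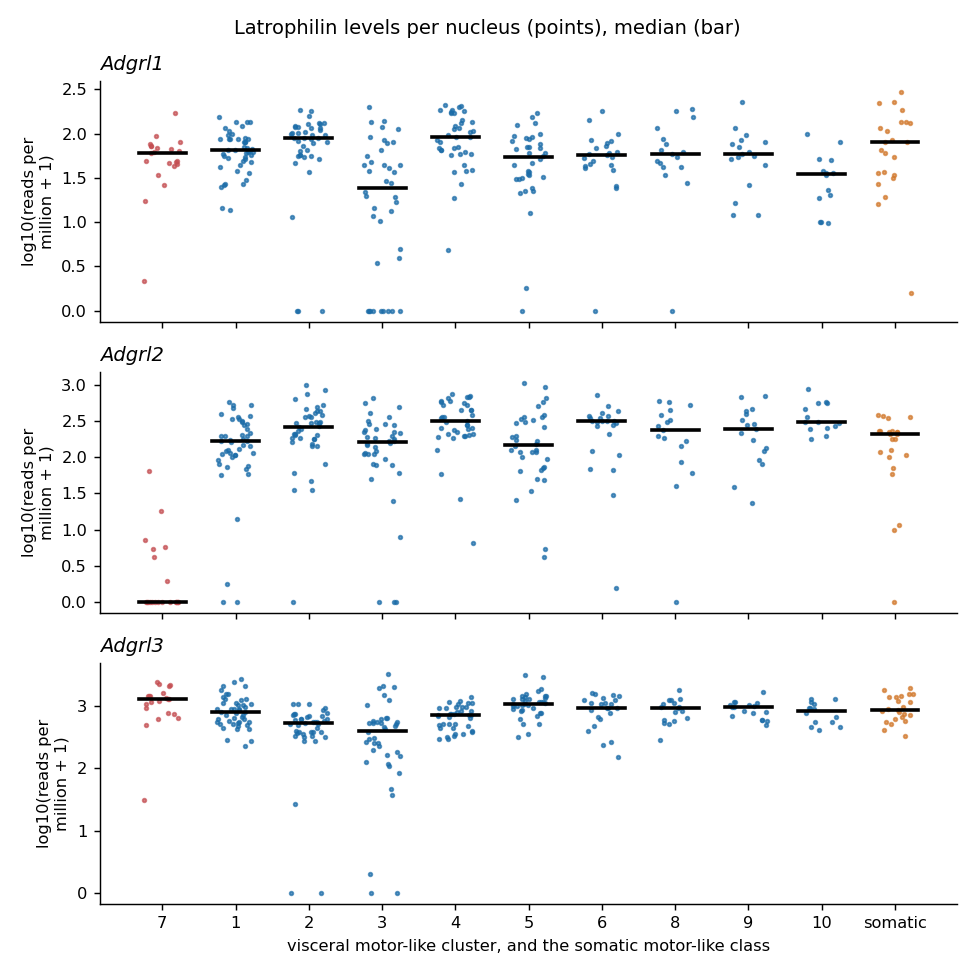
Levels of the latrophilins per nucleus, as log10 of CPM plus 1, in the 10 visceral motor-like clusters and the somatic motor-like class. Each point is 1 nucleus and the bar is the median. In cluster 7 (red) the median of Adgrl2 is 0, while Adgrl1 and Adgrl3 have medians of 58.9 and 1286 CPM.

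Split by Cck itself instead of by cluster, the difference was smaller. Adgrl2 was found in 15 of 27 visceral nuclei with a Cck read (55.6%, 35.3 to 74.5; median 3.17 CPM) and in 257 of 266 without one (96.6%, 93.7 to 98.4; median 218).

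Of the latrophilin ligands none passed the limit in cluster 7. The 4 teneurins were found in 18 of 19 nuclei each, and all had lower summed levels in cluster 7. Tenm1 had 302 RPM in cluster 7 and 1395 in the other visceral nuclei, Tenm2 1720 and 2824, Tenm3 365 and 1660, and Tenm4 228 and 716. Flrt2 was found in 2 of 19 nuclei (10.5%) against 30.0%, and Flrt1 in 68.4% against 49.8%. Of the other lists, 3 partners were called lower in cluster 7. Rtn4r, a Nogo receptor that binds Adgrb receptors, was found in 0 of 19 nuclei (0 to 17.6) against 47.4%. Tgm2, an Adgrg1 ligand, was found in 0 of 19 against 52.2%, and Col4a1, a basement membrane collagen that binds Adgrg6, in 4 of 19 (21.1%) against 93.7%. Adgrg1 itself was found in 84.2% of cluster 7 and in 73.9% of the other visceral nuclei, and Adgrg6 in 10.5% of cluster 7.

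Counting strand bears on some of these genes. In the GENCODE M21 gene models 7 members share exonic bases with a gene on the opposite strand that is also in the count table. These are Adgra2 with Brf2, Adgre5 with Ddx39, Adgrg2 with Gm15241, Adgrg6 with Gm46212, Adgrl1 with Gm10644, Adgrl2 with Gm43573 and Adgrl3 with Gm16054. The use of strand is not given in the sources used here, so reads in the shared bases, which come to 202 bases for Adgrl2 and 1582 for Adgrl3, cannot be assigned to 1 of the genes. Adgrv1 overlaps 9330111N05Rik, also in the count table, on the opposite strand without shared exonic bases. The same limit holds there if intronic reads were counted.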

How the data were processed

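Nuclear RNA of single sorted nuclei was made into Smart-seq2 libraries with 22 amplification cycles and no molecular identifiers, per the labels' protocols. The authors deposited raw read counts per gene, whole numbers that are not normalised, for 383 nuclei. Per the submitters' processing notes the build was GRCm38 and the tools were bcl2fastq, STAR, Picard, edgeR and Seurat 3, with no roles given. The annotation, counting mode and use of strand are not given in the sources used here. No 2 nuclei had identical counts, but 17 pairs of retained nuclei had a Pearson r of log2(CPM + 1) of at least 0.85, a limit set after seeing the data, and were treated as near-identical. A shallow copy can be missed by this measure.

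All nuclei are 1 group, because the labels name no animal, so no hypothesis test was run. Nuclei with at least 1000 genes with a read were retained, and none of them had over 10% mitochondrial reads. A gene was detected with at least 1 read. Shares have exact Clopper-Pearson and summed reads exact Poisson 95% intervals, which cover counting error only, since amplified reads are not independent molecules. The deposited counts were scaled to 1000000 reads, per nucleus (CPM) or summed over nuclei (RPM). Lengths came from GENCODE M21 (GRCm38), in which all 27 members and 95.2% of the table's genes were matched by symbol.

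Clusters were built in scanpy 1.11.5 (counts scaled to 10000, log-transformed, 2000 variable genes, 15 components, 10 neighbours, Leiden resolution 1) without the members, their listed partners, mitochondrial and ribosomal protein genes. A cluster was called visceral or somatic motor-like from the mean shares over the marker lists. By the difference of mean log levels, no marker of a non-neuronal cell was among the 10 leading genes of a cluster. By the ratio of mean levels Gfap was among them in 1 cluster of the first clustering and in visceral cluster 2. In each of these 1 nucleus had 8231 CPM. For comparisons each nucleus was thinned to 500000 reads, which left out 21 visceral nuclei, and genes with a read in at least 5 thinned nuclei were compared. Wells received single nuclei, and doublets were not called by software. The comparison was tried on simulated data in which the changed genes differed by far larger folds than the class ratios reported here. That trial does not show how well smaller differences are found. Alternatives covered the gene minimum, thinning depth, read minimum, limit, resolution, neighbours and blocks of 96 nucleus numbers, which the labels do not tie to plates.

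All members were accounted for. Full values are given for members over 50%, those past the limit and Adgre1, Adgrf5, Adgrl4 and Adgrg1. The members and lists were chosen with earlier results of these data known.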

Additional observations from a re-analysis of the deposited data

Results flagged for a closer look

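The 67 nuclei left out by the gene minimum, which no comparison used, had a median of 2328 reads and were searched for the members. A signal was called there when it exceeded the limit of 3 nuclei, or 4.48%, that a count of 0 would allow. Of the 27 members 3 exceeded it. Adgrb3 had a read in 20 of the 67 nuclei (29.9%, exact interval 19.3 to 42.3), Adgrl3 in 18 (26.9%, 16.8 to 39.1) and Adgrg6 in 7 (10.4%, 4.30 to 20.3). The 7 nuclei with Adgrg6 held 1 read each. In the retained nuclei Adgrg6 ranked 17 of 27 by share, below Adgrl1, which had a read in 1 of the 67. In these shallow nuclei 16 members had no read.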

How the results depend on the processing

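No paired analysis was possible because all nuclei form 1 group and their numbers pair no samples. The count of members found in over 50% of nuclei was 13, 11 after thinning, 10 with at least 5 reads and 12 to 16 with each block of 96 nucleus numbers left out, and it stayed 13 under the other settings tried. The median number of members per nucleus was 15, and 11 with at least 5 reads. The count of members past the limit between somatic and visceral nuclei was 0, and 1 (Adgre1, lower) with at least 5 reads or at 30 points, when 255 and 599 genes passed instead of 234. It was 8 by a ratio of summed levels of at least 2, an alternative chosen after seeing the data, by which 3282 genes passed. Other depths of thinning, no thinning, another random draw, other gene minimums, 40 points whatever the intervals and leaving out near-identical nuclei gave 0. Among visceral clusters 10 members passed, against 19.1% of genes. It was 7 without thinning (14.4% of genes) and without cluster 3 (12.6%), 8 at resolution 0.5 (11.8%), 9 with 20 neighbours (15.6%) and with at least 5 reads (18.2%), 10 at 30 points (24.3%), 11 at resolution 1.5 (27.0%) and with the held-out genes included (20.7%), and 12 whatever the intervals (23.3%). Of the 9 members that passed with at least 5 reads, 6 were among the 10. The genes that passed came to 4783, to 2947 at resolution 0.5 and to 3004 without cluster 3. With near-identical nuclei left out 10 members passed (17.6% of genes), or 11 with clusters made anew (17.3%). The Adgrl2 difference in cluster 7 was -61.2 points, -64.1 without thinning and -86.3 with at least 5 reads (10.5% in the cluster, 96.8% elsewhere), and -61.2 at both other resolutions, with 20 neighbours and with the held-out genes included. It was -64.6 without near-identical nuclei, with the same or new clusters. All of these were chosen after seeing the data, and the cause of the change was not tested. Of 297 shares of single members under alternatives 40 moved past their interval, as did 1 of 270 differences between classes, and none reversed. After thinning Adgrd1 (45.1%) and Adgra3 (47.5%) no longer passed 50%.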
